A study of Sus scrofa with 12 samples.

Results

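The comparison set the longissimus dorsi of Meishan pigs at 120 days after birth against the same muscle at 65 days post coitus (dpc), the oldest and the youngest of the 4 stages in the series. Its members were the 6 arrays whose titles name those stages, 3 for each, out of 12 arrays in all, and every probe set that is not an array control. The longissimus dorsi is the long back muscle that gives the pork loin, and the Meishan is a Chinese breed. Total RNA was labelled with biotin and hybridized to Affymetrix porcine arrays, 1 array per sample, and the question put by the design was how expression changes as the muscle develops. The fetal samples came from fetuses of pregnant Meishan females, with the fetuses of a female taken as 1 individual. The 120-day samples came from pigs fed by standard commercial practice, and the labels give neither group a treatment, a sex or a genotype beyond the breed. The samples are described as biological replicates, and p-values measure the spread between these samples alone. Each sample was a whole piece of muscle, in which fewer cells of a type and less RNA per cell cannot be told apart.

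Skeletal muscle grows before birth mainly by dividing myoblasts that fuse into fibres, and after birth mainly by enlargement of fibres already formed. Fibres replace embryonic and cardiac-type forms of their contractile proteins with adult ones, and they build up the sarcoplasmic reticulum, glycolytic enzymes and mitochondria. The connective tissue around them shifts over the same period from growth to upkeep.

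Over 23999 non-control probe sets the 12 arrays had medians close to 50 intensity units. Over the 16166 that passed a filter on low values, the 6 arrays compared were correlated on the log2 scale. The r was 0.905 to 0.950 within the fetal stage, 0.969 to 0.985 within the 120-day stage and 0.714 to 0.813 between them. The filter on low values kept 16166 probe sets (67.4%), of which 753 were above its limit on all 3 fetal arrays and on 0 of the 120-day arrays, and 640 the reverse. Such probe sets passed through the stage in which they are high. Of the 753, 710 were called lower, and of the 640, 609 were called higher, so the direction of these calls was not independent of the filter. The hybridization controls, which the array maker's protocol adds in fixed amounts, averaged 9.68 ± 0.023 on the log2 scale in fetal samples and 10.12 ± 0.036 at 120 days (SD, n = 3). The 3′ to 5′ signal ratio of actin, a measure of RNA integrity and labelling, was 2.45 ± 0.168 in fetal samples and 5.08 ± 0.896 at 120 days. Another pair of actin control probe sets gave 0.841 and 0.903. The GAPDH pairs went different ways, with means of 1.46 ± 0.0168 and 0.940 ± 0.0210, of 0.765 and 1.13, and of 0.858 and 1.04. The ratio of EF1A was 0.929 and 1.12. These values separated the stages with an exact two-sided permutation p of 0.1 each, the smallest that 3 against 3 arrays allow (0.125 adjusted over 15 array measures), and their part in the results was not tested. The skeletal muscle markers CKM, MYLPF, TNNC2, TTN and DES were bright on all 6 arrays, while the liver markers ALB and AFP and the cartilage marker SOX9 did not pass the filter. Other markers of those tissues did. The liver apolipoprotein APOA1 read 487, 324 and 331 in the fetus and 243, 188 and 131 at 120 days and was called lower (-0.96), a call lost without the first fetal or the third 120-day array. Of the cartilage genes COL2A1 was not called (0.32), and the dim ACAN was called higher (0.29), a call lost in 11 of 18 alternative settings. The third fetal array stood apart in immune genes, which is described with those genes.

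Across the muscle transcriptome, 7826 of 16166 probe sets (48.4%) were called at an adjusted p under 0.05 by limma, with 3778 (23.4%) higher at 120 days and 4048 (25%) lower. All changes are differences of log2(intensity + 21), 120 days minus 65 dpc, which understate the change of dim probe sets. Large changes were more often falls: 1930 called probe sets (11.9%) were lower by at least 2-fold and 1222 (7.56%) were higher by that much. The largest called fall was 66.9-fold and the largest rise 35.4-fold. The balance of rises and falls depended on the scaling, since with each array centred on its hybridization controls the median of all probe sets moved from 0.00 to -0.43, 1197 were called higher and 7134 lower, and rises made up 14.4% of the calls in place of 48.3%. Of the 5765 genes with a symbol, each represented by its brightest probe set, 2699 (46.8%) were called, 1393 (24.2%) higher and 1306 (22.7%) lower, with a median log2 change of 0.03. These shares are the background for the counts of gene groups. The annotation did not list 4047 of the 7826 called probe sets, among them 46 of the 100 with the largest changes, and these are left unnamed here.

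**Figure D1:**
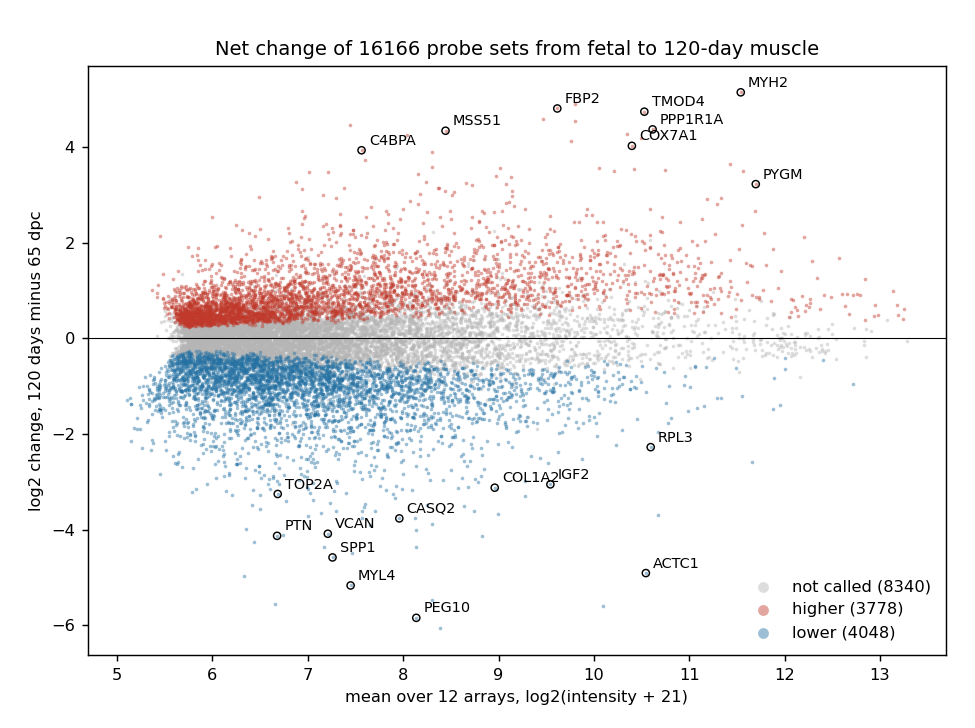
Each point is 1 of the 16166 probe sets kept, with its mean over the 12 arrays in log2(intensity + 21) on the x axis and its log2 change from 65 dpc to 120 days on the y axis. Red points (3778) were called higher, blue points (4048) lower and grey points (8340) were not called, and circles mark 19 named genes, from MYH2 at 5.15 to PEG10 at -5.84.

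The largest rises among named genes belonged to the fast contractile apparatus and to the supply of energy. MYH2, the fast IIA myosin heavy chain, read 205, 239 and 170.1 before birth and 7922, 7847 and 7949 at 120 days. The 120-day arrays were nearly equal and far above the fetal ones, a log2 change of 5.15 ± 0.18 (SE; limma adjusted p = 1.8e-08). FBP2, the muscle fructose-bisphosphatase, read 77.6, 77.2 and 54.2 in the fetus and 2993, 2176 and 2397 at 120 days, a change of 4.81 ± 0.45 (limma adjusted p = 1.1e-05). TMOD4, which caps the thin filaments of fast fibres, read 108, 179.9 and 133 and then 4389, 4135 and 4167, a change of 4.74 ± 0.23 (limma adjusted p = 1.4e-07). In these and in all other genes of this paragraph the fetal and 120-day ranges were separate, which the choice of the 15 largest rises required. Of all named genes 60.2% had separate ranges. PPP1R1A, an inhibitor of protein phosphatase 1, rose by 4.37 from 299, 141 and 223 to 5405, 4859 and 4225. MSS51, a mitochondrial protein of fast muscle, rose by 4.34 from 66.5, 63.8 and 61.1 to 1783, 1569 and 1753. COX7A1, the heart and muscle form of a cytochrome c oxidase subunit, rose by 4.03, with a fetal array at 68.9 below the other two at 197 and 310.4. The next rises included 4 enzymes of energy supply and its buffers. They were GAMT, which makes creatine (3.58), CKMT2, the mitochondrial creatine kinase of muscle (3.55), GPD1 of the glycerol phosphate shuttle (3.56) and ADSSL1 of the purine nucleotide cycle (3.51). PDK4, which inhibits pyruvate dehydrogenase, rose by 3.52, and the membrane protein TMEM52 by 3.56. The other 3 of the 15 largest rises are not known as muscle fibre genes. They were the complement regulator C4BPA (3.93), the protease inhibitor SLPI (3.74) and the drug-metabolizing enzyme CYP3A29 (3.48). Their arrays varied most, C4BPA reading 1118, 231 and 731 at 120 days and CYP3A29 6.96, 5.67 and 155 in the fetus.

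The largest falls were in the imprinted gene PEG10, fetal contractile forms and secreted or matrix proteins. PEG10, a paternally expressed gene derived from a retrotransposon, read 3251, 4003 and 2702 before birth and 34.7, 52.9 and 25 at 120 days, a log2 change of -5.84 ± 0.35 (SE; limma adjusted p = 6.8e-07). MYL4, the embryonic and atrial myosin light chain, went from 2830.0, 3163 and 2032 to 53.3, 44.4 and 61.8, a change of -5.17 ± 0.22 (limma adjusted p = 5.4e-08). ACTC1, cardiac actin, went from 6263, 9443 and 6212 to 198, 224 and 235, a change of -4.91 ± 0.40 (limma adjusted p = 4.1e-06). In each of the 3 the highest 120-day array lay far below the lowest fetal array. Separate ranges were required in the choice of the 15 largest falls as well. SPP1, osteopontin, read 1068, 1405 and 2759.8 and then 78.0, 37.8 and 33.1, with the third fetal array the highest. TNNT2, the cardiac and embryonic troponin T, read 1159.9, 786 and 681 and then 33.7, 28.4 and 26.0. CASQ2, the calcium store protein of slow and cardiac muscle, read 602, 1104 and 486 and then 37.1, 36.0 and 21.8. Their changes were -4.58, -4.12 and -3.76, in that order. The other falls among the 15 largest were secreted or matrix proteins but for IGSF1, a membrane protein of the immunoglobulin family (-3.28), and FKBP10, a collagen chaperone of the endoplasmic reticulum (-3.25). POSTN fell by 4.14, the growth factor PTN by 4.13, the proteoglycan VCAN by 4.08, EGFL6 by 3.57, THBS2 by 3.49 and ASPN by 3.31, and FNDC1 changed by -3.75.

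By the third day after birth most of the way from fetal to 120-day levels had been covered. At that age the 1222 probe sets with called rises of at least 2-fold stood at a median of 70.4% of the distance (interquartile range 48.5% to 97.1%), and the 1930 with such falls at 86% (70.0% to 97.8%). At 60 days the medians were 86.8% and 90.7%. These positions use the same fetal and 120-day arrays that chose the probe sets and are a description. MYL4 had reached 58.4 by 3 days, the mean over 3 arrays, against 53.2 at 120 days, and MYH2 had reached 5828 against 7906. Other genes moved late. ACTC1 still averaged 5117 at 3 days, fell to 646 at 60 days and stood at 219 at 120 days, and its change between 3 and 120 days was -4.33 (limma adjusted p = 0.00046). CASQ2 averaged 913 at 3 days against 731 in the fetus, and fell by 4.11 after that (limma adjusted p = 0.00046). MSS51 averaged 109 at 3 days and 1016 at 60 days, and rose by 3.84 between 3 and 120 days (limma adjusted p = 0.0025). IGF2, the fetal growth factor, averaged 2494 in the fetus, 1355 at 3 days and 284 at 120 days. Between 3 and 120 days limma called 714 probe sets (4.42%).

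**Figure D2:**
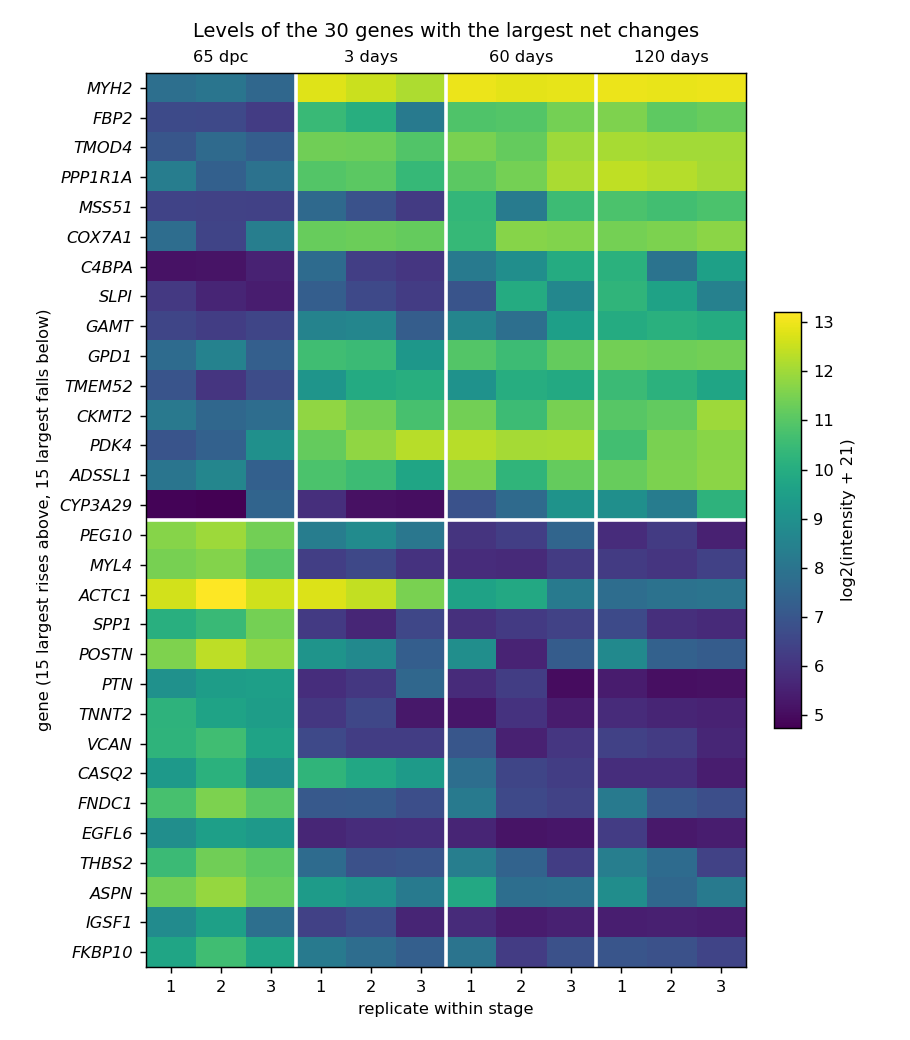
The colours give log2(intensity + 21) of the 15 named genes with the largest called rises (above the white line) and the 15 with the largest falls (below it) on each of the 12 arrays, 3 per stage. MYH2 and COX7A1 were high from 3 days on, MSS51, C4BPA, SLPI and CYP3A29 were brightest on arrays of 60 and 120 days, and ACTC1 and CASQ2 were still bright at 3 days.

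The gene lists fell into those that rose as a body, those that fell and those that moved both ways. Against a background of 24.2% higher and 22.7% lower, the fast fibre, calcium handling, oxidative phosphorylation, citric acid cycle, glycolysis and energy buffer lists each had over 60% of their measured members higher. The matrix, protease, cell cycle, imprinted, RNA-binding, splicing and mesenchymal progenitor lists each had over 60% lower. Lists of ribosomal proteins, immune cells, antigen presentation and interferon genes, immediate early genes and myogenic regulators had fewer calls than the background in both directions. These patterns are for the deposited scaling. With centring on hybridization controls, where 9.37% of named genes were higher and 40.6% lower, the counts of rises were smaller and those of falls larger in many lists. They are given with most of the lists that changed by over 1.5 times. The smooth muscle and pericyte, cartilage and bone, and immediate early lists went from 2 to 1 higher. The dystrophin complex, circadian and mitochondrial ribosome lists went from 0 to 1 lower.

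**Figure D3:**
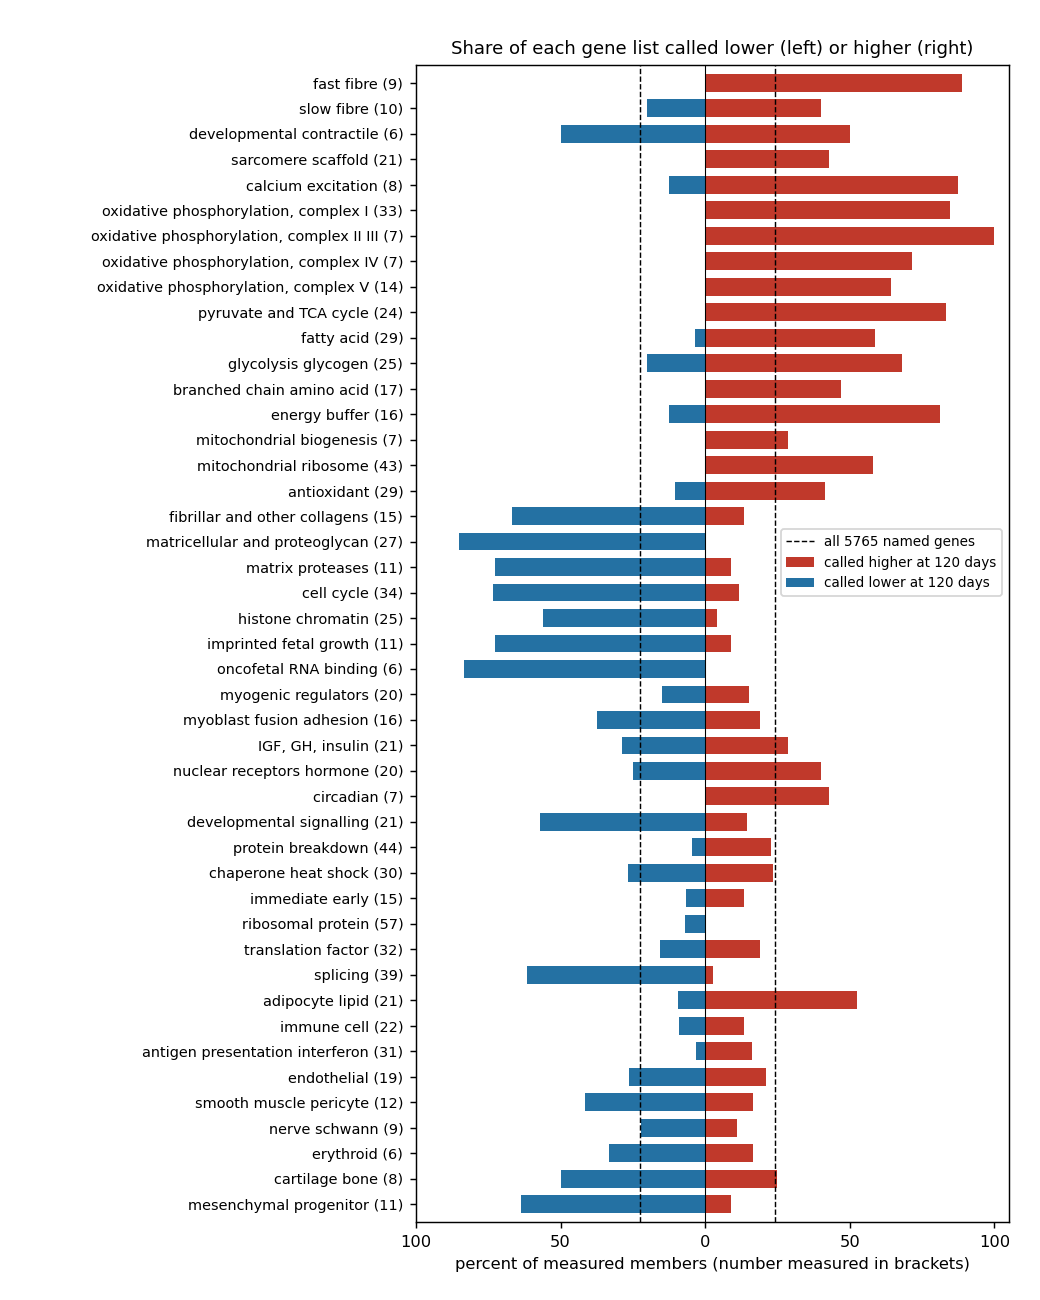
Bars give the percent of measured members of each list called higher at 120 days (red, to the right) or lower (blue, to the left), with the number measured in brackets and dashed lines at the shares of all 5765 named genes, 24.2% and 22.7%. Complexes II and III reach furthest right, with all 7 genes higher, followed by the fast fibre list with 8 of 9, and the matricellular list reaches furthest left, with 23 of 27 lower.

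The fast contractile genes rose as a group, and the fetal forms MYL4, ACTC1 and TNNT2 fell by more than the median rise of that group. Of 9 fast fibre genes 8 rose and 0 fell, with a median log2 change of 0.92, and 5 stayed called with centring on hybridization controls. Besides MYH2 the rises included the sarcoplasmic reticulum calcium pump ATP2A1 (2.81), and MYOZ1, which anchors calcineurin at the Z-disc (1.63). The very bright MYLPF, TNNC2 and TPM1 rose by 0.50, 0.42 and 0.93, calls lost with that centring, where TNNC2 changed by -0.016. At 120 days MYLPF averaged 10317 and TNNC2 10820, and the highest intensity of an array averaged 11186. Whether a ceiling limited their changes was not tested. Of 10 slow fibre genes 4 rose and 2 fell, and 1 was called higher with that centring. MYL3, the slow ventricular light chain, rose by 1.79, and TPM3, the slow tropomyosin, fell by 1.26. MYH7, the slow myosin heavy chain, read 2015, 4227 and 2494 in the fetus and 3163, 4113 and 4068 at 120 days, overlapping ranges with an adjusted p of 0.17 by limma. The list of developmental contractile genes had 3 lower, which were MYL4, ACTC1 and TNNT2, and 3 higher. The higher ones were the stress-responsive ANKRD1 (2.25), the natriuretic peptide NPPB (1.20) and the giant thin filament protein NEB (0.83), of which NEB belongs to adult sarcomeres as well and was not called with that centring. ANKRD1 read 143, 194 and 717 and then 662, 1581 and 2508, and its call was lost without the third 120-day array. Among 21 genes of the sarcomere scaffold 9 rose and 0 fell (4 and 2 with that centring), led after TMOD4 by PDLIM3, a Z-disc protein (2.92), and TCAP, the titin cap (1.60).

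Genes of calcium release and excitation rose in 7 of 8 cases, with a median change of 1.53. RYR1, the calcium release channel of skeletal muscle, read 477, 668 and 428 in the fetus and 1900.3, 1840.1 and 1165 at 120 days, a change of 1.59 ± 0.24 (SE; limma adjusted p = 0.00026). RYR3, the second release channel of developing muscle, went the other way, from 59.2, 161 and 68.0 to 15.9, 17.8 and 22.2, a change of -1.47 ± 0.27 (limma adjusted p = 0.00084). The ranges of both genes were apart between the stages, as were those of 60.2% of all named genes. The pump inhibitors PLN and SLN rose by 2.04 and 0.90, and ATP1B1, a sodium pump subunit, by 2.28. SGCD, the delta-sarcoglycan of the dystrophin complex, rose by 1.56, the only call among its 3 measured members. CHRNA1, the acetylcholine receptor subunit that spreads over fetal fibres and later gathers at the endplate, fell by 1.24, the only call among the 2 measured genes of the neuromuscular junction list.

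Pairs of an early or broadly expressed form and an adult muscle form were followed for 26 proteins, and both members were measured in 14. The adult member rose in 12 pairs, the early member fell in 6, and both happened together in 5. CKB, the brain creatine kinase, read 349, 207 and 447 in the fetus and 63.0, 65.7 and 65.2 at 120 days, while CKM, the muscle enzyme, read 4577, 8162 and 4578 and 8960.1, 9087 and 8917. Their changes were -1.99 ± 0.23 and 0.69 ± 0.18 (SE; limma adjusted p = 3.8e-05 and 0.0085), the latter not called with centring on hybridization controls. The same pattern held for the troponin T forms, where TNNT2 fell by 4.12 and TNNT3 rose by 0.91. It held for phosphofructokinase, where PFKP fell by 0.62 and PFKM rose by 2.94, and for enolase, where ENO1 fell by 1.04 and ENO3 rose by 1.67. For the glucose transporters SLC2A1 went from 93.6, 76.3 and 154 to 23.1, 22.9 and 21.9 and SLC2A4, the insulin-responsive GLUT4, from 44.8, 47.7 and 63.9 to 63.8, 69.5 and 87.8, where the rise of 0.37 overlapped between stages, was lost in 7 of 18 alternative settings and turned to -0.058 with centring on hybridization controls. In 6 pairs the adult form rose while the early form was not called. TMOD1 changed by 0.33 beside TMOD4, COX7A2 by -0.22 beside COX7A1, and ATP2A2 by 0.48 beside ATP2A1. The ATP2A2 value is that of its brightest probe set, and of its 4 kept probe sets 2 were called lower, to -1.48, and 1 higher, at 0.61. TNNI1 changed by 0.11 beside a rise of TNNI2 of 0.92, PYGL by 0.57 beside PYGM at 3.23, and SLC25A5 by -0.55 beside SLC25A4 at 1.4. Both troponin C forms rose, the slow TNNC1 by 0.57 and the fast TNNC2 by 0.42. Besides that centring, the TNNC1 call was lost without the third fetal or the second 120-day array, and the TNNC2 call without the first or the third fetal or the first 120-day array. MYL1, the adult partner of MYL4, changed by 0.38 (limma adjusted p = 0.07). Neither CPT1A (0.41) nor CPT1B (0.58), the gatekeepers of fatty acid entry into mitochondria, was called, although CPT1B averaged 695 at 3 days against 83.0 in the fetus and 135 at 120 days.

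**Figure D4:**
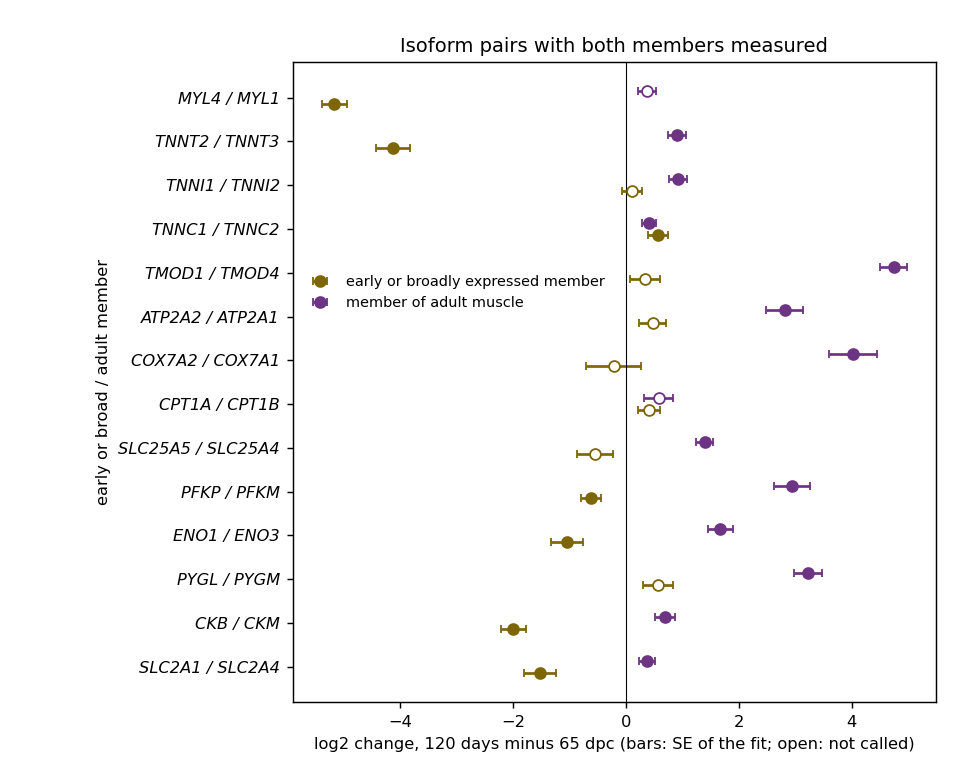
Points give the log2 change from 65 dpc to 120 days of the early or broadly expressed member (brown) and the adult muscle member (purple) of the 14 pairs with both measured, with bars for the SE of the fit and open symbols for changes not called. In 12 pairs the adult member was called higher, and the early member was called lower in 6, from PFKP at -0.62 to MYL4 at -5.17.

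Oxidative phosphorylation genes rose in every complex. Of 61 measured genes limma called 49 higher and 0 lower, with a median log2 change of 1.21, and at an unadjusted p under 0.05 the counts were 54 and 0, where 53.8% of named genes passed. In complex I, which takes electrons from NADH, 28 of 33 rose with a median of 1.32. NDUFC1, one of its accessory subunits, read 527, 288 and 315 in the fetus and 1511, 1597 and 2056 at 120 days, a change of 2.17 ± 0.31 (SE; limma adjusted p = 0.00016), and NDUFS7 and NDUFB1 rose by 2.03 and 2. All 7 measured genes of complexes II and III and cytochrome c rose, led by UQCR10 (1.96) and the succinate dehydrogenase subunit SDHC (1.82). In complex IV, cytochrome c oxidase, 5 of 7 rose. COX8H, the muscle form of a small subunit, read 1042, 430.4 and 818 and then 4359.9, 3782 and 4296, a change of 2.49, whereas COX6A1, a form used outside muscle, changed by -0.92 (limma adjusted p = 0.1). In complex V, the ATP synthase, 9 of 14 rose, led by ATP5G1 (1.76), and 4 were called without the third 120-day array, the highest in the list. The summed intensity of the 33 complex I genes was 26217, 14335 and 21944 in the fetus and 48199, 48255 and 63504 at 120 days, so the second fetal array was the lowest. At 3 days the sums were 67811, 70090 and 54914, and at 60 days 29224, 52669 and 59352, so the course to 120 days was not a steady rise. With centring on hybridization controls, which leaves 9.37% of named genes higher, 22 complex I genes were called higher, 2 of 7 in complex IV and 4 of 14 in complex V, and 1 complex IV gene was called lower.

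Fuel oxidation upstream of the respiratory chain rose as well. Of 24 genes of pyruvate oxidation and the citric acid cycle 20 rose and 0 fell, with a median of 1.20. SUCLA2, a subunit of succinyl-CoA synthetase, went from 479.9, 781 and 286 to 1924, 1982 and 2853, a change of 2.17 ± 0.31 (SE; limma adjusted p = 0.00016), and GOT2, the mitochondrial aspartate aminotransferase, rose by 2.04. Citrate synthase, CS, a common gauge of mitochondrial content, rose by 0.96, a call lost with centring on hybridization controls. Of 29 fatty acid genes 17 rose and 1 fell, and with that centring 11 and 3 did. The rises included ACSL1, which activates fatty acids (1.62), and the oxidation enzymes ECI1 (1.60) and ACADS (1.55), and the fall was ACOT7, a thioesterase (-0.80). All 3 rising genes averaged more at 3 days than at 120 days, ACSL1 at 1204 and 629.8. PPARGC1A, the coactivator of mitochondrial biogenesis, read 63.2, 85.5 and 240.3 and 99.7, 300.0 and 122, with ranges that overlapped and a change of 0.41 ± 0.61 (limma adjusted p = 0.6). Genes of branched-chain amino acid breakdown rose in 8 of 17 cases and fell in 0 (4 and 2 with that centring). BCKDHB, a subunit of the dehydrogenase that commits these amino acids to oxidation, went from 63.7, 71.9 and 52.5 to 598, 666 and 701, a change of 3.02.

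Glycolysis and glycogen use changed in 22 of 25 genes, 17 of them higher and 5 lower. PYGM, the muscle glycogen phosphorylase, read 688, 959.8 and 592 in the fetus and 7363, 7096 and 6627 at 120 days, a change of 3.23 ± 0.25 (SE; limma adjusted p = 2.7e-06). PFKM, the muscle phosphofructokinase, read 489, 1126 and 416 and then 4558, 4769.7 and 5245, and PHKB, a subunit of phosphorylase kinase, rose by 2.43. TPI1, triosephosphate isomerase, rose by 2.38 and LDHA, the lactate dehydrogenase subunit of fast muscle, by 1.25. The 5 falls were in the forms that predominate outside fast muscle. HK1, the hexokinase of most tissues, went from 568, 586 and 933 to 153, 144 and 119, a change of -2.13 ± 0.24 (limma adjusted p = 3.8e-05). The heart-type subunit LDHB fell by 0.99, the liver-type PFKL by 1.17, ENO1 by 1.04 and PFKP by 0.62. Of the 16 energy buffer genes 13 rose (8 with centring on hybridization controls) and 2 fell, the falls being CKB and the adenine nucleotide carrier SLC25A6 (-1.67), while the muscle carrier SLC25A4 went from 1713, 1846 and 1912 to 4190.3, 4700.2 and 5773.

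The mitochondrial ribosome rose in part. Of its 43 measured proteins 25 rose and 0 fell, with a median of 0.81, led by MRPL51 (1.88) and MRPS25 (1.78). The count was 12 without the second fetal array, 14 without the first 120-day array and 13 without the third, and 7 with centring on hybridization controls. The summed level of these genes was 12905, 7101 and 10122 in the fetus and 18609, 17306 and 18519 at 120 days. Among 29 antioxidant genes 12 rose and 3 fell, and with that centring 7 and 6 did. NQO1, a quinone reductase, went from 75.9, 88.8 and 66.1 to 700.4, 590.0 and 504, a change of 2.65. SELENOW, a muscle selenoprotein, rose by 1.94 and SOD2, the mitochondrial superoxide dismutase, by 1.84, while GSTA4, a glutathione transferase, fell by 2.07 and GSR, glutathione reductase, by 0.88.

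Genes of the extracellular matrix fell together. Of 15 collagens and collagen-modifying enzymes 10 fell and 2 rose, with a median log2 change of -1.14. COL1A2, a chain of type I collagen, read 1583, 3389.9 and 1886 in the fetus and 275, 177 and 248 at 120 days, a change of -3.12 ± 0.47 (SE; limma adjusted p = 0.00025). COL5A1 fell by 2.92, the cross-linking enzyme LOX by 2.03 and the collagen chaperone SERPINH1 by 1.69. The 2 rises were the dim COL8A1 (0.75) and COL5A2 (0.49), and neither was called with centring on hybridization controls. The probe set for COL3A1 read 49.4, 41.4 and 55.1 and 112, 69.7 and 55.2, near the array medians, with an adjusted p of 0.095 by limma. Of 27 matricellular proteins and proteoglycans 23 fell and 0 rose, with a median of -1.79. VCAN, versican of the provisional matrix, went from 1184, 1543 and 779 to 62.2, 53.3 and 28.9, and POSTN, periostin, from 3006, 5198 and 3591 to 407, 145 and 125. Neither overlapped, which the choice of the 15 largest falls required. The first 120-day array was the highest of its stage in POSTN, FNDC1 and THBS2. Matrix proteases and their inhibitors fell in 8 of 11 cases. The membrane protease MMP14 fell by 2.88 and the fibroblast protease FAP by 2.36, and the inhibitor TIMP3 rose by 1.01.

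Genes of cell division fell in 25 of 34 cases, with a median of -1.06. Of the falling genes TOP2A, CCNB1, RRM2, TYMS, CCNB2, MCM3, CCNA2 and KIF20A exceeded the filter's limit on 3 fetal and 0 120-day arrays. They passed the filter through the stage in which they are high. TOP2A, the DNA topoisomerase of dividing cells, read 387, 682 and 424 in the fetus and 28.3, 33.4 and 33.9 at 120 days, a change of -3.25 ± 0.44 (SE; limma adjusted p = 0.00012). CCND2, a cyclin of the G1 phase, went from 1404, 1003 and 801 to 141, 107 and 74.2. The fetal and 120-day ranges of TOP2A and CCND2 were apart, as were those of 60.2% of all named genes. UBE2C, which serves mitotic exit, fell by 2.70, the microtubule regulator STMN1 by 2.51 and the replication helicase subunit MCM2 by 2.36. The list also had 4 rises, all of 0.70 or less, among them the mitotic kinases AURKB (0.70) and PLK1 (0.51), and with centring on hybridization controls 0 of the 4 were called. Of 25 histone and chromatin genes 14 fell and 1 rose. DNMT1, the maintenance DNA methyltransferase, went from 508, 691 and 342 to 65.7, 62.6 and 54.5, a change of -2.65. LMNB1, lamin B1, fell by 2.43, HMGB2 by 2.11 and the histone methyltransferase EZH2 by 1.54, while the deacetylase SIRT2 rose by 0.77, a call also lost with that centring.

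Imprinted and fetal growth genes fell in 8 of 11 cases, with a median of -2.20, the lowest of all lists with at least 5 measured genes. IGF2 read 2191, 3039 and 2252 in the fetus and 336, 305 and 211 at 120 days, a change of -3.05 ± 0.29 (SE; limma adjusted p = 1.3e-05). PLAGL1, a zinc finger regulator of imprinted genes, went from 366, 577 and 374 to 43.1, 40.6 and 28.5, a change of -2.96. MEG3, a maternally expressed non-coding RNA, went from 378, 347 and 644 to 47.7, 42.6 and 41.6, a change of -2.83. The paternally expressed NNAT and NDN fell by 2.25 and 2.20. GRB10, an imprinted adaptor that inhibits insulin signalling, rose from 147, 146 and 270.0 to 755, 618 and 919, a change of 1.94 ± 0.47 (limma adjusted p = 0.0047). In each of these genes the fetal and 120-day ranges were apart, as they were in 60.2% of all named genes.

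Regulators of RNA processing fell in numbers. Of 39 splicing factors 24 fell and 1 rose, with a median of -0.65. HNRNPA1, an abundant heterogeneous nuclear ribonucleoprotein, read 2056, 2579 and 1709 and then 1001, 937 and 588, a change of -1.32. The small nuclear ribonucleoprotein SNRPD1 fell by 1.30, and the rise was U2AF2, from 21.9, 23.8 and 23.1 to 46.7, 50 and 61.8 (0.74), which was not called with centring on hybridization controls. Of 6 RNA-binding regulators of muscle splicing and fetal mRNAs 5 fell, among them RBFOX2 (-1.81), MBNL3 (-1.76) and PTBP1 (-1.52), proteins known to steer alternative exons. Cytoplasmic ribosomal proteins showed few calls, with 4 of 57 lower, 0 higher and a median of -0.14. RPL3 was the one large change, 3893, 3877 and 3134 in the fetus and 811, 700.3 and 688 at 120 days, a log2 change of -2.27 ± 0.22 (SE; limma adjusted p = 1.3e-05). The other 3 were RPL17 (-0.46), RPS4X (-0.41) and RPSA (-0.40), named after their values were seen, and with any 1 array left out the list had 1 call. The scaling weighs on this bright group, since 38 were called lower with centring on hybridization controls, where 40.6% of named genes were, and 17 with quantile normalization. Of 32 translation factors 6 rose and 5 fell (2 and 11 with that centring). EIF2S2 and EIF1, which serve initiation, rose by 0.93 and 0.89, and PABPC1, the poly(A)-binding protein, and EIF4A1, a helicase of initiation, fell by 1.46 and 1.18. The 6 rises became 3 without the second or the third 120-day array.

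Chaperones moved both ways, with 7 of 30 higher (23.3%) and 8 lower (26.7%), shares near the background. With centring on hybridization controls 4 were called higher. The rises were led by HSPB8, a small heat shock protein of muscle, from 305, 418 and 466 to 1554, 1561 and 1559 (1.94), and its partner BAG3 (1.92). The falls were led by the disulfide isomerases of the endoplasmic reticulum PDIA6, from 1589, 1998 and 1622 to 522, 461 and 504 (-1.76), and PDIA4 (-1.66), and they included the cytosolic HSP90AB1 (-1.25). Protein breakdown genes had 10 of 44 higher, a share of 22.7% near the background, and 2 lower, a share of 4.55% below it, and with that centring the counts were 3 and 8. The rises included TP53INP2, which promotes autophagy (1.52), and the proteasome subunit PSMD4 (1.33), and BNIP3L, a receptor of mitochondrial autophagy, fell by 1.91. The 10 rises became 6, 6 and 5 without the first, the second and the third 120-day array, in that order.

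Myogenic regulators had few calls as a list, with 3 of 20 higher and 3 lower, while some defining members changed greatly. The counts were 0 and 10 with centring on hybridization controls, and 1 was higher without the second fetal array. MYF5, the factor that marks myoblasts and satellite cells, read 373, 184 and 572 in the fetus and 24.8, 23.2 and 11.3 at 120 days, a change of -3.17 ± 0.34 (SE; limma adjusted p = 2.5e-05). FST, follistatin, which binds myostatin, went from 409, 312 and 499 to 146, 90.7 and 62.4, a change of -1.86. MSTN, myostatin, read 537, 1136 and 385 and 238, 248 and 282, which did not overlap but had an adjusted p of 0.11 by limma, and it averaged 53.5 at 3 days. MYOD1 read 348, 282 and 171 and 165, 138 and 103 (limma adjusted p = 0.057), and MYF6, the factor of mature fibres, read 266, 146 and 424 and 692, 849 and 437 (limma adjusted p = 0.059). TEAD4, a partner of YAP in myoblasts, rose by 0.72, a call lost with that centring and without the second fetal or the third 120-day array. MYOG and PAX7 were not measured here. In the list of fusion and adhesion genes 6 of 16 fell and 3 rose. The cadherin CDH11 fell by 2.77, the junction protein JAM3 by 2.45 and VCAM1 by 2.28, while the muscle calpain CAPN3 rose by 1.59 and BIN1, which shapes T-tubules, by 1.08.

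Growth hormone, IGF and insulin genes had 6 of 21 higher and 6 lower, shares of 28.6% each that lie near the background. With centring on hybridization controls 2 were higher and 10 lower. Apart from IGF2, the falls included the binding protein IGFBP2 (-2.01), the kinase AKT1 (-1.27) and the transporter SLC2A3, whose fetal arrays read 191, 185 and 1402 with the third far above the others (-2.55). The rises included the receptor substrate IRS1, from 29.4, 20.6 and 22.4 to 93.6, 113 and 64.5 (1.28), and FOXO1, a transcription factor restrained by insulin (1.15). IGF1 read 66.8, 78.1 and 75.8 and 92.8, 101 and 113, a small rise of 0.38 that was lost with a replicate block, without the first or the third fetal array and without the second or the third 120-day array, and that turned to -0.047 with that centring. Another IGF1 probe set was called lower by 1.07. The 6 rises became 3 without the first fetal or the second 120-day array.

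Of 20 genes of nuclear receptors and hormone response 8 rose and 5 fell (5 and 8 with centring on hybridization controls). KLF9, a zinc finger gene induced by glucocorticoid and thyroid hormone, read 24.7, 46.9 and 57.2 in the fetus and 583, 701 and 461 at 120 days, a change of 3.25 ± 0.25 (SE; limma adjusted p = 3.1e-06). FKBP5, a glucocorticoid-induced cochaperone of the receptor, went from 89.8, 62.6 and 191 to 651, 852 and 825, a change of 2.66 ± 0.41 (limma adjusted p = 0.00027). HSD11B1, which regenerates active glucocorticoid in cells, rose by 1.67. The receptor gene NR3C1 itself read 280.4, 499.7 and 434 and 338, 352 and 211, overlapping ranges with an adjusted p of 0.21 by limma. THRA, a thyroid hormone receptor, went from 260.4, 412 and 353 to 173, 156 and 122, a fall of 1.07, although another of its probe sets was called higher. NR2F2, an orphan receptor of mesenchyme, and CRABP2, a retinoic acid carrier, fell by 1.10 and 0.88, and ALDH1A1, which makes retinoic acid, rose by 1.80, with means of 65.5 in the fetus, 48.1 at 3 days and 278 at 120 days. The 8 rises became 5 without the second fetal or the second 120-day array, and the 5 falls became 3 without the second or the third 120-day array. Of 7 circadian clock genes 3 rose and 0 fell, RORA from 23.6, 37.3 and 36.8 to 235, 227 and 226 (2.23) and the repressor CRY2 by 1.51 among them. The labels give no hour of sampling.

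Developmental signalling genes fell in 12 of 21 cases and rose in 3. DKK3, a secreted relative of Wnt inhibitors, went from 498, 629 and 553 to 97.1, 75.7 and 54.1, a change of -2.61. FGF7 fell by 1.76, the receptor FGFR1 by 1.75 and TGFB3 by 1.68, although another probe set of FGFR1 was called higher. The rises were small, the largest that of BMP7 (0.58), and with centring on hybridization controls 0 of the 3 were called. Immediate early genes, which respond to handling within minutes, had 2 of 15 higher and 1 lower, with 0 higher without the second fetal array, 4 without the third and 3 lower with that centring. CEBPB read 216, 135 and 858 and 1279, 1209 and 1203, a rise of 1.97 that was lost without the second fetal array, and EGR1 fell by 1.4, a call lost without any 1 of 4 arrays, the first and the second of the fetus and the first and the third of 120 days.

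Genes that mark other cells of the tissue moved in ways that differed by cell type. The mesenchymal progenitor list fell in 7 of 11 genes, with a median of -1.25 and summed intensities of 13207, 15183 and 14567 in the fetus and 5566, 4554 and 5078 at 120 days. MDK, midkine, fell by 2.78, the matrix protein DPT by 2.47 and VIM, vimentin, by 1.42, while the dim S100A4 rose by 0.51, a call lost with centring on hybridization controls. These genes moved beside the falling matrix lists, and their part in those falls was not tested. Adipocyte and lipid genes rose in 11 of 21 cases and fell in 2 (5 and 3 with that centring), with sums of 1990, 2073 and 2699 in the fetus and 5593, 4540 and 4444 at 120 days. CFD, adipsin, went from 61.2, 39.6 and 96.4 to 959, 695 and 546 (3.14), and FABP4, the fatty acid carrier of fat and capillary cells, from 224, 336 and 483 to 1049, 939 and 707 (1.36). ADIPOQ, adiponectin, read 8.49, 11.5 and 7.14 and 78.6, 25.1 and 75.1, well under most of the array in the fetus and not called (limma adjusted p = 0.053), and ELOVL6, a fatty acid elongase, fell by 1.13, although another of its probe sets was called higher. ME1, malic enzyme, rose by 1.95, with means of 59.9 in the fetus, 53.5 at 3 days and 302 at 120 days.

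The vessel, nerve and blood lists had calls in both directions, against a background of 24.2% of named genes higher and 22.7% lower. Of 19 endothelial genes 4 rose (21.1%) and 5 fell (26.3%), shares near the background, PECAM1 falling by 1.08 and CD34 by 0.70 while FABP4 rose. The rises became 1 without the third 120-day array and 1 with centring on hybridization controls. The falls became 3 without the first or the second 120-day array. Of 12 smooth muscle and pericyte genes 5 fell (41.7%), among them PDGFRB (-1.17, with another probe set called higher) and MCAM (-1.28), and 2 rose (16.7%). RGS5, a pericyte marker, was one of the latter, with 289, 581 and 249.5 in the fetus and 1537, 1646 and 1655 at 120 days (2.14). Of 9 nerve and Schwann cell genes 2 fell (22.2%) and 1 rose (11.1%), shares under the background. The largest of these changes was that of MBP, a myelin protein (-0.68). The MBP call was lost with array weights and without the second or the third fetal or the third 120-day array, and 2 other MBP probe sets were called higher, to 1.51. With that centring 0 nerve genes were higher and 5 lower. Of 6 measured erythroid genes 2 fell (33.3%), 1 rose (16.7%) and 3 were not called. HBB, beta globin, read 491, 577 and 251 and 236, 273 and 185, a fall of 0.81 lost in 6 settings that include leaving out the first fetal array, and AHSP, which stabilizes alpha globin, read 641, 43.3 and 314 and 13.2, 17.0 and 26.4 (-2.62). SLC25A37, the mitochondrial iron carrier, rose by 1.08, a call lost with that centring, while ALAS2, the erythroid enzyme of haem synthesis, changed by 0.13, the transferrin receptor TFRC by 0.75 and HBM by -0.77. Of 8 cartilage and bone genes 4 fell (50%), among them SPP1, COMP (-2.39) and HAPLN1 (-1.66), and 2 rose (25%), among them the dim SP7 (0.95).

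Immune genes depended on a single array. The summed level of the 22 immune cell genes was 1722, 1679 and 11090 in the fetus and 2786, 1962 and 4329 at 120 days, and that of the 31 antigen presentation and interferon genes was 6758, 5798 and 36813 and then 12025, 11186 and 17377. The third fetal array was the highest in both lists, above every 120-day array. CD163, a macrophage receptor, read 65.9, 117 and 868 in the fetus and 191, 118 and 342 at 120 days, and SLA-DRA, a class II antigen-presenting molecule, read 92.9, 112 and 2665 and 514, 388 and 1048. With all arrays 3 of the 22 immune genes were higher and 2 lower, and 5 of the 31 antigen and interferon genes were higher and 1 lower, with 1 higher in each list under centring on hybridization controls. Without the third fetal array the counts of higher genes were 11 and 23, against 24.6% of named genes in that fit, and the lists' medians went from 0.07 to 0.67 and from 0.32 to 1.29. The interferon-induced OAS1 read 42.1, 27.6 and 185 and 311, 261 and 649, a rise of 2.21 ± 0.50 (SE; limma adjusted p = 0.0035) that was called in all 18 alternative settings. JCHAIN, which joins secreted antibodies, rose from 25.4, 35.4 and 50.4 to 176, 144 and 241 (1.83), and CXCR4, a chemokine receptor also carried by fetal muscle cells, fell from 363, 415 and 251 to 86.4, 63.9 and 86.9 (-1.84).

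**Figure D5:**
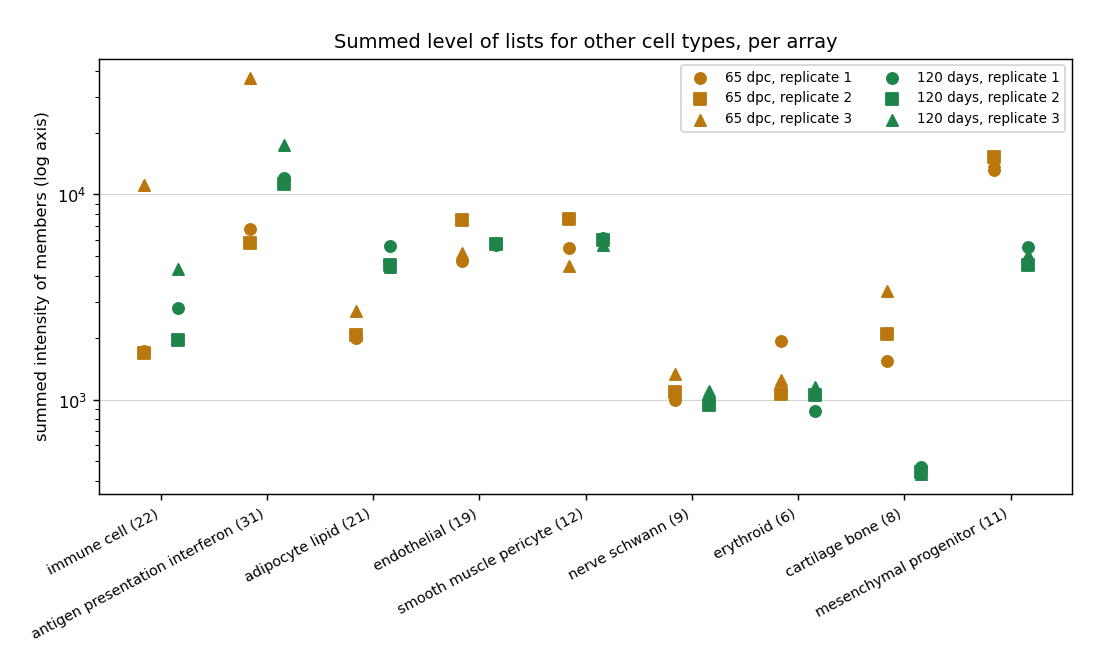
Each symbol is the summed intensity, on a log axis, of the measured genes of a list (number in brackets) on 1 array, orange for 65 dpc and green for 120 days, with the shape giving the replicate. The third fetal array lies far above the other fetal arrays in the immune and antigen presentation lists, while in the cartilage and mesenchymal lists all 3 fetal arrays lie above all 3 at 120 days.

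Probe sets of one gene did not always move together. Of 576 genes with at least 2 called probe sets, 505 had them in 1 direction and 71 (12.3%) in both. The widest gap was at B2M, beta-2 microglobulin, to which the annotation assigns 9 kept probe sets. The brightest of them read 3502, 3136 and 3896 and 3551, 3589 and 3250.2 and was not called, while the others ranged from -3.70 to 1.33. CALM3, calmodulin, had 6 kept probe sets from -2.58 to 2.17, NKIRAS1 2 at -1.83 and 2, and GPX7 3 from -2.71 to 0.47. FIBIN had a bright probe set at -3.17 and a dim one at 0.47. For IGF2 8 of 11 probe sets were called lower and 1, a dim one, higher by 0.51. Splice forms, antisense probe sets and outdated assignments were not separated here, and a gene's value is that of its brightest probe set.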

How the data were processed

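Total RNA of longissimus dorsi was measured on 12 arrays, 3 per stage. The values are the intensity of each probe set on a linear scale, as deposited by the authors, made with GCOS 1.4 per the submitters' processing notes; no source used here states how probes were summarized or scaled, and detection calls were not used. Array medians lay close together, so no further normalization was applied. The 124 control probe sets were set aside, and log2(intensity + 21) was taken, where 21 lies at the 25th percentile of the table. A probe set was kept if it exceeded its array's 40th percentile on at least 3 of 12 arrays. All 12 arrays entered 1 fit in limma 3.58.1 (R 4.3.3; lmFit, eBayes with a variance trend, 8 residual and 4.26 prior degrees of freedom), with 1 mean per stage, two-sided tests and Benjamini-Hochberg adjustment over 16166 probe sets. Calls needed an adjusted p under 0.05. The fit was tested on simulated data. The number of arrays limits the precision.

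A platform annotation named 10069 probe sets with 1 symbol and 198 with several, and did not list 13732. A gene's brightest kept probe set stood for it. The 47 gene lists held 1423 distinct genes, of which 938 were on the array by symbol and 889 were measured; members, lists and the 26 isoform pairs were chosen with earlier results of these data known, so their counts carry no test of their own. Named were the 15 largest called rises and falls (fetal and 120-day arrays not overlapping, higher mean at or above the median of all values, no locus names), leading members of each list, both members of measured pairs, a fixed set of muscle, growth and marker genes, and up to 6 genes with opposed probe sets. From the fixed set MYH1, MYH3, MYH8, ACTA1, MB, MYOG, PAX7, IGF2BP1, IGF2BP3, HMGA2, DLK1, H19, COL1A1 and MKI67 were not analysed here. Alternatives were other pseudocounts, filters, normalizations, variance models and arrays in the fit, a replicate block, array weights, each array left out, and a 2-fold minimum.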

Additional observations from a re-analysis of the deposited data

How the results depend on the processing

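Of the 214 called genes named, 181 kept the call in every setting that changed 1 choice of the fit and still held the gene. Those were 18 settings, or 17 for a gene that the 60th percentile filter removed. Without any 1 array 196 kept the call, and 23 lost it with centring on hybridization controls. With any 1 of the 6 arrays left out, 2955 to 3741 probe sets were called higher and 3354 to 4010 lower. Other counts moved by over 1.5 times: 5858 higher without a filter, when 23999 probe sets were tested; 1197 higher and 7134 lower with centring on hybridization controls; 166 and 408 against a 2-fold minimum; 1393 and 1306 with 1 probe set per gene, when 5765 were tested. Values that turned sign with that centring were ACAN -0.15, ALAS2 -0.30, COL2A1 -0.11, CD163 -0.43, CPT1A -0.019, IGF1 -0.047, MYL1 -0.054, PPARGC1A -0.018, PRKAG1 -0.075, SLC2A4 -0.058, TMOD1 -0.10, TNNC2 -0.016 and TNNI1 -0.32; the cause was not tested. TNNI1 also turned to -0.054 with quantile normalization, CD163 to -0.055 with a pseudocount of 51 and B2M to 0.0010 and ALAS2 to -0.056 with array weights. With 1 array left out, CD163 lay between -0.67 and 1.01 (-0.34 and -0.36 without the second fetal or the third 120-day array), ALAS2 between -0.063 and 0.25, COX7A2 between -0.59 and 0.091, PPARGC1A between -0.016 and 0.90, and B2M between -0.094 and 0.062 (0.03 without the third 120-day array). Same-numbered fetal and 120-day arrays deviated together at r = 0.0013, 0.19 and 0.30, and differently numbered ones at r = -0.27 to 0.17. No label ties the numbers across stages, and whether they mark a pairing was not tested. With a replicate block 3525 probe sets were higher and 3918 lower, with 1 ribosomal protein called lower in place of 4. Dim probe sets carry the least reliable changes, and 3 arrays per stage limit every value.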

Other observations

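Further gene families were counted over every measured member after their values had been seen. Of all named genes 24.2% were higher and 22.7% lower. Some families moved mostly in 1 direction, some in both, and in others most members were not called. Of 16 proteasome 20S genes 3 rose and 13 were not called. Of 15 protein phosphatase 1 regulatory genes 4 rose, 2 fell and 9 were not called. Of 5 genes of 14-3-3 proteins 4 fell, and of 6 ASB genes 3 rose and 2 fell. Of 4 aldo-keto reductases 2 rose, and of 2 calmodulin genes 1, CALM3, was called higher (0.88, limma adjusted p = 0.049). The CALM3 call was lost in 6 of 18 alternative settings, and of its 6 probe sets 2 were called higher and 3 lower. Of 7 septins, which form filaments at the cell cortex, 6 fell and 0 rose, with SEPT11 at -2.15 and SEPT8 at -2.10. Of 5 genes of tubulins and their ring complex 3 fell and 2 were not called. TUBA1B, TUBB and TUBGCP3 fell by 1.77, 1.95 and 0.65, and TUBB4B (-0.29) and TUBGCP2 (-0.20) were the others. The fall of TUBGCP3 was not called in 6 of 18 alternative settings, and its other probe set was called higher (0.61). Among reticulocalbins and the receptors that return proteins to the endoplasmic reticulum 4 of 5 fell, with RCN1 at -2.54 and KDELR3 at -2.20. FKBP proteins split, with 5 of 13 lower and 3 higher: the collagen-related FKBP10 and FKBP9 fell by 3.25 and 2.33, and FKBP5 rose by 2.66.

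The subunits of AMP-activated protein kinase, which senses low energy, moved in both directions. The catalytic PRKAA2 read 308, 448 and 377 in the fetus and 1813, 1541 and 1528 at 120 days, a log2 change of 2.06 ± 0.32 (SE; limma adjusted p = 0.0003). Its partner PRKAB2 read 102, 184 and 76.1 and 672, 682 and 761, a change of 2.43 ± 0.36 (limma adjusted p = 0.00023), and PRKAG3, a form of fast muscle, rose by 0.70, a call lost with centring on hybridization controls. PRKAB1 and PRKAG2 fell by 1.10 and 1.11, and PRKAA1 (-0.32) and PRKAG1 (0.36) were not called. Of 14 cytochrome P450 genes 7 rose and 3 fell. AKR1C1, a steroid-reducing enzyme, went from 14, 10.3 and 11 to 253, 152 and 169, a change of 2.67. These genes were named after their values were seen, and the families carry no test.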
